A study of Mus musculus with 4 samples.

Results

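The respiratory chain genes described here are the protein-coding genes of the mouse whose GENCODE M21 symbol starts with Nduf, Uqcr, Cox4, Cox5, Cox6, Cox7, Cox8, Atp5 or mt-, together with Sdha, Sdhb, Sdhc and Sdhd. The rule uses names and no measured value, and it found 104 of the 25261 gene identifiers in the files, 91 of them encoded in the nucleus and 13 in the mitochondrial genome. RNA sequencing was done on total RNA of neural stem cells of the adult mouse, which divide and can form new neurons and glial cells. The shOGT group (n = 2) carried a lentivirus with a short hairpin RNA against mouse Ogt, the gene of O-GlcNAc transferase, an enzyme that modifies many proteins of the nucleus, cytoplasm and mitochondria with a sugar. The ctrl group (n = 2) carried a lentivirus with a scrambled hairpin. Both groups came from 8-week-old C57BL/6 mice, and both were infected cells, so no uninfected library enters the comparison. Since separate cultures are not stated for the 2 libraries within a group, p-values below measure only the spread between these libraries, which may be technical.

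The respiratory chain passes electrons from NADH and succinate to oxygen and uses the energy to pump protons across the inner mitochondrial membrane. Complex I (NADH dehydrogenase) and complex II (succinate dehydrogenase) feed electrons to coenzyme Q, complex III (cytochrome bc1) hands them to cytochrome c, complex IV (cytochrome c oxidase) hands them to oxygen, and complex V (ATP synthase) lets the protons flow back to make ATP. Complexes I, III, IV and V are built from subunits of both genomes, and complex II from nuclear subunits alone. Neural stem cells are known for a glycolytic metabolism that gives way to oxidative phosphorylation as their progeny turn into neurons.

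The RNAs of the 13 mitochondrial coding genes are cut from long transcripts of both strands. Each gene is called an mRNA below, also where neighbouring genes may share an mRNA. The coding sequences of some neighbouring genes overlap. Stretches of 2 such pairs are shown because a read that falls on the shared bases belongs to both genes; both are on the plus strand of GRCm38, and the capitals mark the bases that both genes hold within the stretch, which is chrM:7917-7946 for mt-Atp8 and mt-Atp6 (43 shared bases in all, at 7927 to 7969) and chrM:10144-10173 for mt-Nd4l and mt-Nd4 (7 shared bases).
mt-Atp8 and mt-Atp6: gagaattaaaATGAACGAAAATCTATTTGC
mt-Nd4l and mt-Nd4: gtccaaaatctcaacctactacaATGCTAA

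Nuclear subunit genes have no common promoter, but many are known targets of the transcription factor NRF1. The RefSeq promoter windows of GRCm38.p6 (250 bases before to 50 after the start) were matched for 75 of the 91 nuclear members. The letters GCGCANGCG, searched on both strands, were found in 21 of these 75 windows (28%), against 12.4% of 12016 windows of tested coding genes. The letters AAGATGGCG, known for YY1, were in 9.33% of the member windows and 2.78% of all, CCGGAAG, known for ETS factors and GABP, in 22.7% and 16.2%, TCAAGGTCA, known for ERRalpha, in 2.67% and 0.250%, and GGGCGG, known for SP1, in 45.3% and 61.8%. These motifs were chosen with results of these data known, and a match is a description of the letters, not a bound site. The windows of all tested coding genes were not matched to the members in signal level. The stretches below hold the NRF1 letters in genes whose values are given further on, with the match in capitals, for Atp5g2 at chr15:102671070-102671099 on the minus strand, Cox6a1 at chr5:115349101-115349130 on the minus strand, and Ndufa11 at chr17:56717692-56717721 on the plus strand.
Atp5g2: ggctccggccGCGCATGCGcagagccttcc
Cox6a1: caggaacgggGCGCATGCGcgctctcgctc
Ndufa11: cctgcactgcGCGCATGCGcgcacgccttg

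If the step between deposited values stands for 1 read, the libraries held 15697508 to 17753976 reads assigned to genes. That a step stands for 1 read was not established for the ctrl libraries (steps of 0.997 and 0.992). Ogt had 3379 and 3516 in shOGT and 4112 and 4138 in ctrl, without overlap (log2 fold change -0.26 with an SE of 0.04, limma adjusted p = 0.00876). Over 13 genes, markers of neural stem cells summed to 134970 and 140096 in shOGT and 143670 and 147580 in ctrl, with 2 called lower. Markers of microglia, endothelium, and pericytes and fibroblasts each summed to at most 66.0 in any library. Not all 13 neural stem cell genes were high. Hes5 had 44.7 and 42.4 in shOGT and 75.8 and 52.6 in ctrl, and Prom1 26.6 and 17.9 in shOGT and 25.9 and 23.8 in ctrl. Proliferation markers were lower (35751 and 34920 in shOGT, 39370 and 39592 in ctrl, 3 of 5 genes called lower), and neuronal markers summed to 18125 and 17952 in shOGT and 16005 and 16512 in ctrl, with 1 of 10 genes called higher. Most of the neuronal sum was Map2 (17564 and 17269 in shOGT, 15469 and 15954 in ctrl), while Dcx, of young neurons, had 19.1 and 29.2 in shOGT and 40.9 and 66.5 in ctrl. The oligodendrocyte lineage list summed to 62621 and 61595 in shOGT and 60422 and 61217 in ctrl, the astrocyte list to 22929 and 24725 in shOGT and 25791 and 25223 in ctrl, and each had 2 genes called lower. Most of the oligodendrocyte lineage sum was Olig1 (37848 and 37755 in shOGT, 36350 and 37152 in ctrl) and Olig2. Olig2 had 20158 and 19687 in shOGT and 19015 and 19105 in ctrl. Pdgfra had 132 and 137 in shOGT and 287 and 303 in ctrl. Over the 9 tested genes of this list the median log2 fold change was -0.09. Whether these differences take part in the results below was not tested, and in bulk RNA fewer cells of a type and less RNA per cell cannot be told apart.

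Across the chain the differences were small. All 104 members passed the filter on low values, and 4 were higher and 2 lower in shOGT at an adjusted p under 0.05, against 1.96% and 2.90% of the 21829 genes tested, and 3.62% and 5.60% of the 11080 genes with a mean of at least 100. The higher genes were mt-Atp8, mt-Nd2, mt-Nd6 and Cox6b2, and the lower genes were Atp5l and Atp5f1. The median log2 fold change of the members was -0.0087, where that of all genes tested was 0.0012. Both shOGT values lay above both ctrl values in 24 members and below them in 36, and the groups overlapped in 44; over all genes 25.0% lay above and 24.3% below, and at a mean of at least 100, the range of most members, 27.9% and 32.1% of genes. With libraries rescaled to equal totals 29 members lay above and 24 below, and with equal nuclear totals 31 and 24. Among members with a mean of at least 100, the median size of the log2 fold change was 0.06 (98 genes), against 0.10 for the 11080 tested genes with such a mean. The 95% interval lay within 1.25-fold either way in 89.8% of the members and in 63.0% of those genes, a bound chosen after the values were seen. Those genes were not matched to the members in signal level. The median SE was 0.05 for the members and 0.07 for those genes, so these shares do not show that the members are more stable. No member passed the test in limma with any 1 library left out and the genes tested kept as they were (9 to 15 members at an unadjusted p under 0.05, against 19 with all 4 libraries), and the same held for all genes, with 2484 to 3389 at an unadjusted p under 0.05.

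**Figure D1:**
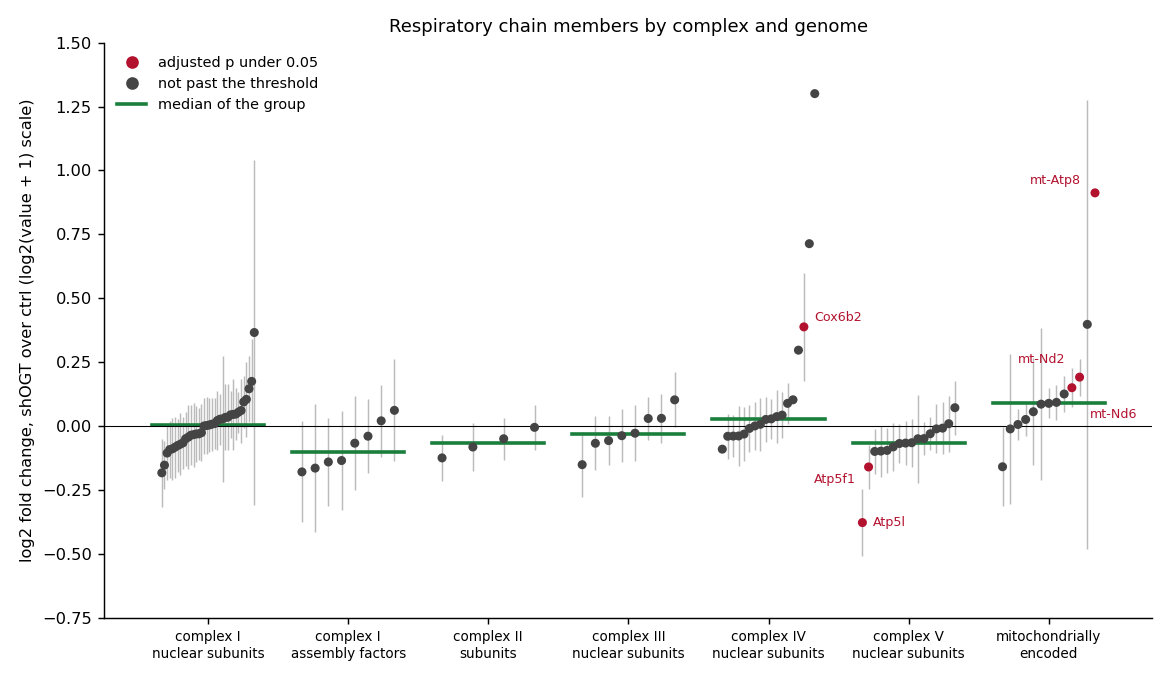
Log2 fold change of each member, shOGT over ctrl (log2(value + 1) scale), by complex and genome of origin; green lines are group medians, red points are the 6 members with an adjusted p under 0.05, grey bars are 95% intervals and are drawn for members with a mean of at least 100. Most points lie close to 0, those of complex V mostly below it and those of the mitochondrial genome mostly above it; Atp5s, which was put in no complex, is not drawn.

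The mitochondrially encoded mRNAs were slightly higher as a group. Their summed signal was 588216 and 599404 in shOGT and 571994 and 565569 in ctrl, a ratio of 1.04, and the groups did not overlap. The sum of the 91 nuclear members was 286660 and 286567 in shOGT and 293461 and 290645 in ctrl, a ratio of 0.981. The mitochondrial sum was therefore 2.05 and 2.09 times the nuclear sum in shOGT, and 1.95 in each ctrl library. The total signal of all genes was lower in shOGT (1.67e+07 in each library) than in ctrl (1.69e+07 and 1.70e+07). With libraries rescaled to equal totals the ratios were 1.06 for mitochondrial and 0.993 for nuclear members. As a percent of the total, the nuclear sum was 1.718 and 1.712 in shOGT and 1.740 and 1.714 in ctrl, so the groups overlapped. With 2 libraries a side, the smallest 2-sided p that exact permutation can give is 0.333, so no test was run on these sums. Of the 13 mitochondrial members 11 had a log2 fold change above 0, with a median of 0.09, and the median was 0.0055 without shOGT 2.

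**Figure D2:**
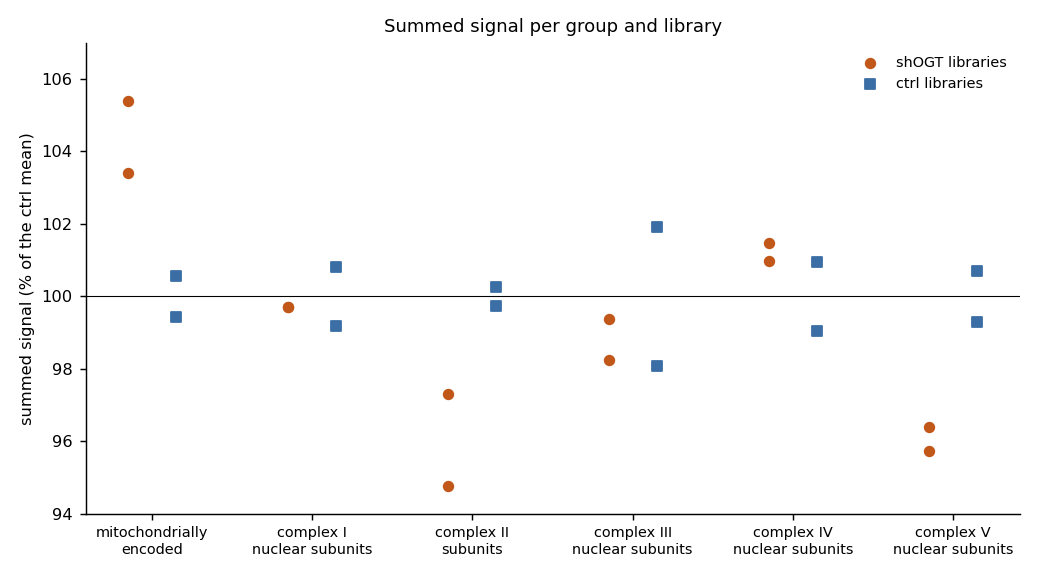
Summed deposited signal of each group of members in each library, as a percent of the mean of the 2 ctrl libraries; circles are shOGT and squares ctrl, and the axis does not start at 0. The shOGT libraries lie above both ctrl libraries for the mitochondrial mRNAs and below both for complexes II and V. For complex IV they lie above both only barely (55575 in shOGT 1 and 55553 in ctrl 2).

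Among the mitochondrial subunits of complex I, mt-Nd2, which encodes a proton-pumping membrane subunit, had 52637 and 55432 in shOGT and 46994 and 47621 in ctrl. It rose by 0.19 ± 0.03 on the log2 scale (± SE here and below, limma adjusted p = 0.0120), on the plus strand at chrM:3914-4951 (GRCm38). mt-Nd6, the subunit mRNA cut from the other strand, at chrM:13552-14070, had 10839 and 10568 in shOGT and 9742 and 9551 in ctrl and rose by 0.15 ± 0.03 (adjusted p = 0.0361). Both shOGT values lay above both ctrl values for each of these genes. The 3' end of mt-Nd6 overlaps that of mt-Nd5 on the opposite strand, and the sources used here do not say whether counting used strand. mt-Nd4 had 42617 and 44072 in shOGT and 40241 and 39228 in ctrl, just outside the threshold (0.13 ± 0.03, adjusted p = 0.0503). mt-Nd5 measured 0.09 ± 0.03 (adjusted p = 0.125) and mt-Nd1 0.03 ± 0.03 (adjusted p = 0.680), and the groups of mt-Nd1 overlapped. mt-Nd3 had 657 and 728 in shOGT and 772 and 773 in ctrl, the one subunit of complex I in this genome with both shOGT values below both ctrl values (-0.16 ± 0.07, adjusted p = 0.245).

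mt-Cytb, the cytochrome b of complex III, had 122457 and 125105 in shOGT and 116469 and 116296 in ctrl, without overlap (0.09 ± 0.03, adjusted p = 0.0934). With libraries rescaled to equal totals, mt-Cytb and mt-Nd4 also passed the threshold, at log2 fold changes of 0.11 and 0.14. mt-Co1, the catalytic subunit of complex IV and the most abundant mitochondrial mRNA per kilobase, had 214311 and 216644 in shOGT and 218017 and 211169 in ctrl (0.006 ± 0.03, adjusted p = 0.935). It made up 36.4% and 36.1% of the mitochondrial sum in shOGT and 38.1% and 37.3% in ctrl. The summed signal of the mitochondrial subunits of complex I thus stood at a ratio of 1.07 between shOGT and ctrl, and that of the mitochondrial subunits of complex IV at 1.004.

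mt-Atp8, a small subunit of the membrane part of complex V, had the largest log2 fold change of the called members. It had 73.4 and 94.3 in shOGT and 45.9 and 41.7 in ctrl, a log2 fold change of 0.91 ± 0.21 (adjusted p = 0.0399), at chrM:7766-7969. Its level was low for this genome, at 360 and 462 per kilobase in shOGT and 225 and 204 per kilobase in ctrl, where mt-Nd6 stood at 20885 and 20363 in shOGT and 18771 and 18402 in ctrl. The mRNA of mt-Atp8 is known to be shared with mt-Atp6, whose start is printed above and which had 1911 and 2308 in shOGT and 2326 and 1683 in ctrl (0.09 ± 0.13, adjusted p = 0.790). The 2 ctrl values of mt-Atp6 enclosed both shOGT values, while the groups of mt-Atp8 did not overlap.

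mt-Atp8 apart, the mitochondrial mRNAs with the lowest levels were those with near-identical copies annotated in the nuclear genome. Stretches of mitochondrial DNA inserted in nuclear chromosomes are known in mice, and how reads shared by both places were counted is not given in the sources used here. Of the words of 50 bases in mt-Co2, mt-Co3, mt-Atp6, mt-Nd4l and mt-Nd3, 98.0% to 100% were also found in transcripts of other genes, mainly unprocessed pseudogenes on chromosome 1. These 5 mRNAs averaged 1990 to 5369 per kilobase in shOGT and 2113 to 5180 in ctrl. The other 8 shared 62.2% of their words or fewer, and, mt-Atp8 apart, averaged 20624 to 139468 per kilobase in shOGT and 18587 to 138895 in ctrl. This grouping was made after the values were seen, and the part of the copies in these levels was not tested. Only annotated transcripts were searched, so a copy of mt-Atp8, which shared 0 words, could have been missed. At chrM:7766-7969, mt-Atp8 lies next to mt-Co2 (chrM:7013-7696) and overlaps mt-Atp6, which are both among the copied mRNAs.

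The copied mRNAs were also those whose replicates differed most. The larger value of a replicate pair was up to 1.11 times the smaller one for mt-Nd3, 1.45 times for mt-Co3 and 2.70 times for mt-Nd4l, whereas the other mRNAs, again without mt-Atp8, stayed at 1.05 or below. mt-Nd4l had 492 and 1329 in shOGT and 455 and 828 in ctrl, so the groups overlapped. The chromosome 1 pseudogene Gm28437, which shares words with mt-Co3, had 3918 and 1039 in shOGT and 1127 and 1066 in ctrl, so the shOGT 1 library alone was high. mt-Co3 itself had 1610 and 1623 in shOGT and 1959 and 1355 in ctrl. Without the 5 copied mRNAs the mitochondrial sum was 580140 and 589478 in shOGT and 562569 and 557759 in ctrl, again a ratio of 1.04. All 8 remaining log2 fold changes, that of mt-Atp8 among them, were above 0, with a median of 0.11.

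**Figure D3:**
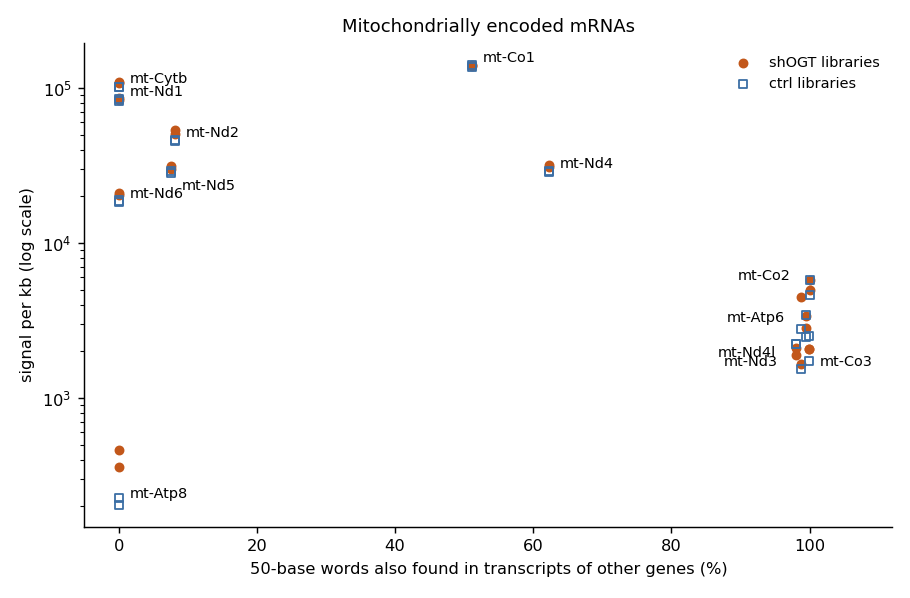
Signal per kilobase (log scale) of the 13 mitochondrial mRNAs in each library against the percent of their 50-base words that also occur in transcripts of other genes; filled circles are shOGT and open squares ctrl. The 5 mRNAs over 90% lie between 1531 and 5758 per kilobase, below all others except mt-Atp8.

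Complex I has 36 nuclear subunit genes among the members, and 0 of them passed the test in limma in either direction, with 4 at an unadjusted p under 0.05. Their median log2 fold change was 0.0032, and their summed signal was 67690 and 67703 in shOGT and 68449 and 67349 in ctrl. Core subunits that carry electrons include Ndufv1 and Ndufs1. Ndufv1, which binds NADH, had 3065 and 2927 in shOGT and 2888 and 2993 in ctrl (0.03 ± 0.04, adjusted p = 0.804), and the groups overlapped. Ndufs1, which holds iron-sulphur clusters, measured 0.04 ± 0.04 (adjusted p = 0.626).

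Accessory subunits surround the core of complex I. Ndufb11 had 2420 and 2442 in shOGT and 2687 and 2720 in ctrl (-0.15 ± 0.04, adjusted p = 0.0705), and Ndufv3 had 1223 and 1348 in shOGT and 1463 and 1452 in ctrl (-0.18 ± 0.06, adjusted p = 0.121). Neither gene's groups overlapped, and neither passed. Ndufb4 had 1378 and 1302 in shOGT and 1249 and 1174 in ctrl (0.15 ± 0.06, adjusted p = 0.202), and Ndufa11 had 773 and 690 in shOGT and 659 and 635 in ctrl (0.17 ± 0.07, adjusted p = 0.229). Exons of Ndufb11 and Ndufa11 overlap those of Rbm10 and Vmac, so reads of these genes may have been counted for either.

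Among the nuclear subunits of complex I the replicates of Ndufa12 differed most, at 1379 and 2072 in shOGT and 1948 and 883 in ctrl (0.37 ± 0.30, adjusted p = 0.564). Its processed pseudogene Gm15920 ran the opposite way, at 1091 and 813 in shOGT and 868 and 1457 in ctrl, and the sums of the gene and its pseudogene were 2470 and 2885 in shOGT and 2815 and 2340 in ctrl. The larger of a replicate pair was up to 2.21 times the smaller for Ndufa12 and 1.20 times for the sum. The 8 assembly factors of complex I, which help to build it and are not part of it, had a median of -0.10, and 5 of them lay below both ctrl values (4 with libraries rescaled to equal totals), against 32.1% of genes with a mean of at least 100. There were 0 calls in limma and 0 at an unadjusted p under 0.05. The lowest was Ndufaf3, at 319 and 333 in shOGT and 352 and 387 in ctrl (-0.18 ± 0.09, adjusted p = 0.305); its exons overlap those of Impdh2.

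The 4 subunits of complex II all had log2 fold changes below 0, with a median of -0.07 and 0 calls in limma (1 at an unadjusted p under 0.05). Sdhd, a membrane anchor, had 2955 and 2972 in shOGT and 3269 and 3193 in ctrl (-0.12 ± 0.04, adjusted p = 0.123). Sdhb, the iron-sulphur subunit, had 3234 and 3230 in shOGT and 3490 and 3353 in ctrl (-0.08 ± 0.04, adjusted p = 0.317), and Sdha, the flavoprotein that oxidises succinate, 9122 and 9577 in shOGT and 9584 and 9767 in ctrl (-0.05 ± 0.04, adjusted p = 0.511). The groups of these 3 genes did not overlap, while those of the other anchor Sdhc did (-0.005 ± 0.04, adjusted p = 0.965). With libraries rescaled to equal totals, 3 of the 4 means were lower in shOGT and 2 genes stayed free of overlap. Both shOGT values lay below both ctrl values in 32.1% of genes with a mean of at least 100, and in 28.3% with equal totals.

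Complex III had 0 calls in limma among 8 nuclear subunits, with 1 at an unadjusted p under 0.05 and a median of -0.03 (0.0062 without ctrl 1 and 0.0089 without shOGT 2). Uqcr10, a small membrane subunit, had 2449 and 2737 in shOGT and 2937 and 2813 in ctrl (-0.15 ± 0.06, adjusted p = 0.182). Uqcrh, the hinge protein that contacts cytochrome c1, had 3137 and 3197 in shOGT and 3066 and 2838 in ctrl (0.10 ± 0.05, adjusted p = 0.278). The Rieske iron-sulphur protein Uqcrfs1 measured -0.03 ± 0.05 (adjusted p = 0.815), the core protein Uqcrc1 0.03 ± 0.04 (adjusted p = 0.730) and the small subunit Uqcrb -0.07 ± 0.05 (adjusted p = 0.482).

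Complex IV had 18 nuclear members, of which 12 had log2 fold changes above 0, with a median of 0.03 and a sum of 55575 and 55848 in shOGT and 54510 and 55553 in ctrl. Of the tested genes with a mean of at least 100, 47.8% had log2 fold changes above 0. The 12 are not a like set, since they include Ndufa4l2, Cox8b, Cox6a2 and Cox7a1, whose means were under 100. Cox4i2, also under 100, was below 0. Ndufa4l2 reached the filter on low values only through the shOGT libraries, so its direction carries no information. The median was 0.016 for the 14 members left when a gene had to reach 10 in 2 or more libraries. Cox6b2, known in mammals as the testis isoform of a subunit that faces the intermembrane space, was the nuclear member that rose. It had 668 and 658 in shOGT and 560 and 457 in ctrl, without overlap, a log2 fold change of 0.39 ± 0.09 (adjusted p = 0.0499), on the minus strand at chr7:4751792-4753094. The ctrl values differed more than the shOGT values, and the log2 fold change was 0.24 without ctrl 2 and 0.53 without ctrl 1. Per kilobase Cox6b2 made up 14.5% and 14.1% of the pair Cox6b1 and Cox6b2 in shOGT, and 12.9% and 10.4% in ctrl. The common isoform Cox6b1 had 4132 and 4193 in shOGT and 3963 and 4120 in ctrl (0.04 ± 0.04, adjusted p = 0.620).

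The other tissue isoforms of complex IV were scarce in these cells. Per kilobase, Cox4i2, known from lung and low oxygen, made up 0.0481% and 0.0615% of the Cox4i1 and Cox4i2 pair in shOGT and 0.0475% and 0.0810% in ctrl. The heart and muscle isoforms Cox6a2 and Cox8b made up at most 0.145% of their sets in any library, and Cox7a1, also of heart and muscle, 2.94% and 2.23% of the set with Cox7a2 and Cox7a2l in shOGT and 2.26% and 1.87% in ctrl. Ndufa4, once counted with complex I and now placed in complex IV, had 3980 and 4224 in shOGT and 4062 and 4322 in ctrl (-0.03 ± 0.05, adjusted p = 0.781). Its relative Ndufa4l2, known as a target of hypoxia, had 3.19 and 1.89 in shOGT and 0 and 0.992 in ctrl, so that at most a few reads carried its value in any library. Cox7b2 and Cox8c, which the rule also takes, were not analysed here.

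**Figure D4:**
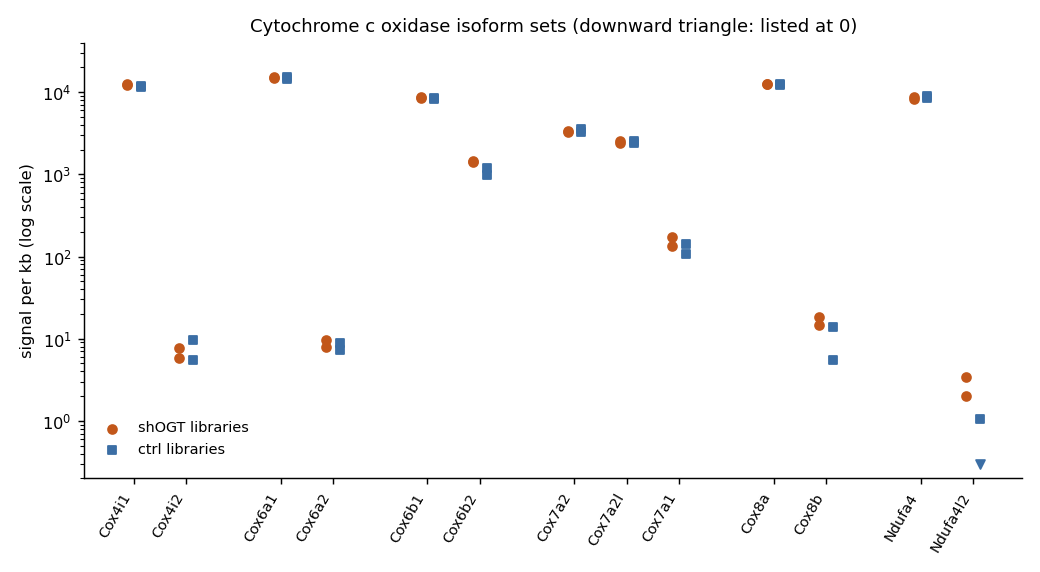
Signal per kilobase (log scale) of the isoform sets of complex IV in each library; circles are shOGT and squares ctrl, and a downward triangle marks a library in which the gene is listed at 0. Cox6b2 lies nearest to its partner isoform apart from the set of Cox7a2 and Cox7a2l, and Cox4i2, Cox6a2, Cox8b and Ndufa4l2 stay at or below 18.3 per kilobase.

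Among further nuclear members of complex IV, Cox4i1 had 8018 and 8339 in shOGT and 7608 and 7770 in ctrl, without overlap (0.09 ± 0.04, adjusted p = 0.216), and its exons overlap those of Emc8. Cox5a measured 0.04 ± 0.05 (adjusted p = 0.723), Cox5b 0.0005 ± 0.04 (adjusted p = 0.9996), Cox6a1 0.03 ± 0.04 (adjusted p = 0.787), Cox7a2 -0.04 ± 0.05 (adjusted p = 0.750), Cox7a2l 0.007 ± 0.05 (adjusted p = 0.960) and Cox8a 0.03 ± 0.03 (adjusted p = 0.725).

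Complex V held both members that fell. Of its 16 nuclear subunits 14 had a log2 fold change below 0, the median was -0.07, and 11 lay below both ctrl values, against 32.1% of genes with a mean of at least 100. With libraries rescaled to equal totals, 12 means were lower in shOGT and 8 genes lay below both ctrl values, against 28.3% of such genes. The median stayed between -0.07 and -0.06 with any 1 library left out. The summed signal was 113591 and 112816 in shOGT and 118664 and 116998 in ctrl, a ratio of 0.961.

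Atp5l, which encodes subunit g of the membrane part, where ATP synthase dimers form, had 1566 and 1617 in shOGT and 2180 and 1961 in ctrl. It fell by 0.38 on the log2 scale (SE 0.06, adjusted p = 0.0085), without overlap, on the minus strand at chr9:44912557-44920742. Its processed pseudogene Gm10221 on chromosome 5 fell too, at 477 and 512 in shOGT and 753 and 756 in ctrl (-0.61 ± 0.07, adjusted p = 0.00227). The sums of the 2 were 2043 and 2129 in shOGT and 2933 and 2717 in ctrl, and reads of the gene and the pseudogene could not be told apart where they are identical. Atp5f1, which encodes subunit b of the peripheral stalk that holds the head still, had 5451 and 5730 in shOGT and 6303 and 6188 in ctrl. It fell by 0.16 on the log2 scale (SE 0.04, adjusted p = 0.0499), on the minus strand at chr3:105942698-105960099, and its adjusted p was 0.0615 with libraries rescaled to equal totals. Exons of Atp5f1 overlap those of Wdr77 and Gm42890, and exons of Atp5l overlap those of Gm30934.

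**Figure D5:**
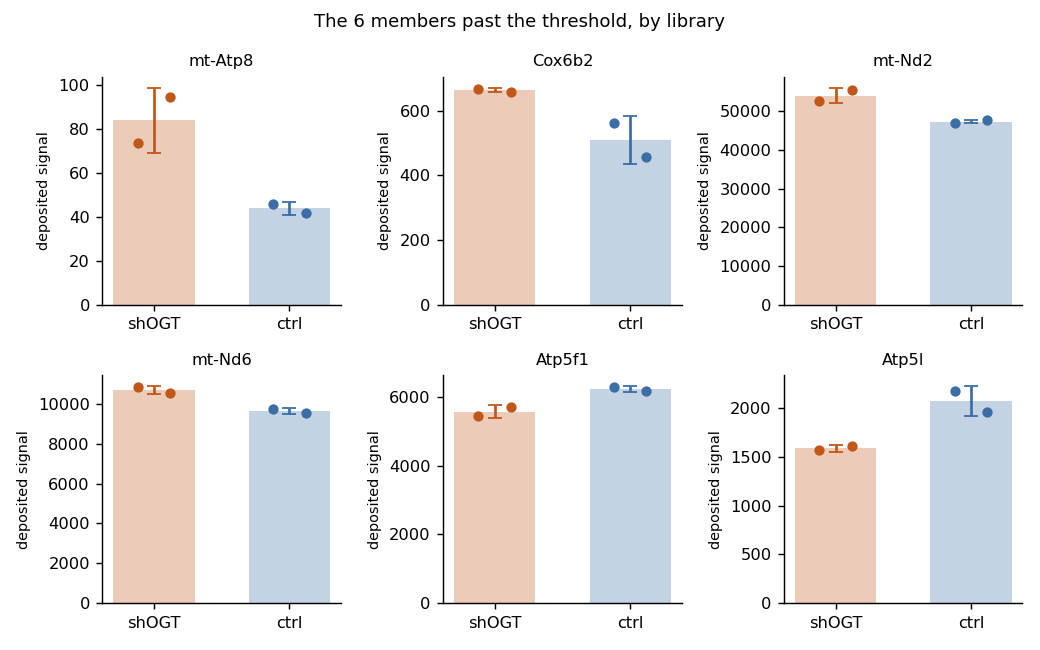
Deposited signal of the 6 members with an adjusted p under 0.05 in each library; bars are means, error bars SD (n = 2), points single libraries, each axis starting at 0. mt-Atp8, Cox6b2, mt-Nd2 and mt-Nd6 are higher in both shOGT libraries than in both ctrl libraries, and Atp5f1 and Atp5l lower.

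The alpha and beta subunits of the catalytic head of complex V differed less than Atp5l and Atp5f1. Atp5b, the catalytic beta subunit, had 39815 and 38628 in shOGT and 40801 and 40339 in ctrl (-0.05 ± 0.03, adjusted p = 0.409), and Atp5a1, the alpha subunit, had 21611 and 21737 in shOGT and 22244 and 22018 in ctrl (-0.03 ± 0.03, adjusted p = 0.632). Atp5e, the epsilon subunit of the central stalk, had 3403 and 3335 in shOGT and 3572 and 3646 in ctrl (-0.10 ± 0.04, adjusted p = 0.210). None of these 3 genes had overlapping groups. By position in the enzyme, the sums in shOGT over ctrl stood at 0.969 for the head and central stalk (5 genes) and 0.961 for the ring (3 genes). They stood at 0.950 for the peripheral stalk (4 genes, Atp5f1 among them) and 0.907 for the small membrane subunits (4 genes, Atp5l among them). The median log2 fold changes ran in another order, at -0.05, -0.07, -0.04 and -0.08 for these parts in turn.

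Subunit c, which forms the rotating ring, comes from 3 genes that encode the same mature protein. Atp5g2 had 4616 and 4776 in shOGT and 5110 and 4925 in ctrl (-0.10 ± 0.04, adjusted p = 0.226), and Atp5g3 had 7791 and 7862 in shOGT and 8155 and 8257 in ctrl (-0.07 ± 0.03, adjusted p = 0.303). Atp5g1 had 2115 and 2149 in shOGT and 2083 and 1975 in ctrl (0.07 ± 0.05, adjusted p = 0.460). Both shOGT values lay below both ctrl values for Atp5g2 and Atp5g3 and above them for Atp5g1. Per kilobase Atp5g1 made up 4.21% and 4.20% of the set in shOGT and 3.89% and 3.72% in ctrl, with the mean length of its coding transcripts as the length. That length was 2665.5 bases for Atp5g1, against 640 for Atp5g2 and 718.5 for Atp5g3, so these shares depend on which transcripts are annotated. Atp5s, a factor associated with ATP synthase that was put in no complex, had 196 and 227 in shOGT and 242 and 220 in ctrl (-0.13 ± 0.12, adjusted p = 0.596).

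Genes that build or serve the chain were taken from lists chosen with earlier results of these data known, and their calls stand against the 1.96% higher and 2.90% lower of all genes tested, or 3.62% and 5.60% at a mean of at least 100. Of 33 assembly factors of complexes II to V, 0 were higher and 3 lower, with a median of 0.0079. Coa5, a complex IV assembly factor, had 1479 and 1472 in shOGT and 2333 and 2371 in ctrl (-0.67 ± 0.05, adjusted p = 0.000335), and its log2 fold change stayed between -0.68 and -0.66 with any 1 library left out. Uqcc2, which assists the making of cytochrome b, fell by 0.29 (SE 0.05, adjusted p = 0.0144) and Cox14, a complex IV assembly factor, by 0.21 (SE 0.05, adjusted p = 0.0479) on the log2 scale. The groups of these 3 genes did not overlap.

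Among 10 electron carriers and supercomplex factors, Cycs, the somatic cytochrome c, had 4232 and 4214 in shOGT and 4918 and 4839 in ctrl (-0.21 ± 0.04, adjusted p = 0.0146). Gpd2, the mitochondrial glycerol-3-phosphate dehydrogenase, had 4805 and 5742 in shOGT and 3917 and 4008 in ctrl (0.41 ± 0.07, adjusted p = 0.0132), and its exons overlap those of A930012O16Rik. The 9 further complex I assembly genes and the 13 genes of coenzyme Q synthesis had 0 calls, with medians of -0.03 and 0.02, and the ATP synthase inhibitor Atpif1 measured -0.11 without passing.

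Of 24 genes of mitochondrial transcription, replication and mRNA stability, with a median of 0.07, only Polrmt passed, the RNA polymerase that transcribes the mitochondrial genome. It had 565 and 586 in shOGT and 454 and 469 in ctrl (0.32 ± 0.07, adjusted p = 0.0356). Of 15 regulators of respiratory gene transcription, with a median of -0.04, the stress-response factors Nfe2l2 (0.34 ± 0.05, adjusted p = 0.00922) and Nfe2l1 (-0.25 ± 0.05, adjusted p = 0.0162) passed, in opposite directions.

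Of 28 genes of the tricarboxylic acid cycle and pyruvate dehydrogenase, with a median of -0.0049, 3 were higher and 2 lower, against 3.62% and 5.60% of genes with a mean of at least 100. Ogdh and Ogdhl, forms of the first enzyme of the 2-oxoglutarate dehydrogenase complex, rose by 0.16 ± 0.04 (adjusted p = 0.0420) and 0.41 ± 0.06 (adjusted p = 0.00508). Dlst, the second enzyme of that complex, had 4133 and 4247 in shOGT and 4998 and 4966 in ctrl (-0.25 ± 0.04, adjusted p = 0.00758). Pcx, pyruvate carboxylase, rose by 0.33 ± 0.06 (adjusted p = 0.0138), and Pdk3, a kinase that inhibits pyruvate dehydrogenase, had 204 and 225 in shOGT and 354 and 295 in ctrl (-0.59 ± 0.11, adjusted p = 0.0218; -0.46 without ctrl 1). None of these 13 genes passed in limma with 1 library left out and the genes tested kept as they were.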

How the data were processed

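Total RNA of 4 libraries was sequenced. The deposited files give a normalized signal per gene; the submitters' processing notes name mm10, while aligner, counting tool, strand use and normalization method are unstated in the labels and notes used. Every deposited signal was a whole multiple of 1 step per library (0.943 to 1.06, within 0.01 of a step), and no count model was run. Of 25261 identifiers 25250 matched GENCODE M21 (GRCm38). limma 3.58.1 in R 4.3.3 (empirical Bayes with a variance trend) was fitted to log2(value + 1) on 21829 genes, those that reached 1 in 2 or more of the 4 libraries, with Benjamini-Hochberg adjustment over all of them and an adjusted p under 0.05 as the threshold; such fold changes understate the change of low genes. Levels per kilobase used the mean length of a gene's protein-coding transcripts. Copies were sought as shared 50-base words of GENCODE M21 transcripts. Treatment labels gave the groups, and titles gave the replicate numbers. Named were all members past the threshold, all mitochondrial mRNAs, core subunits, isoform sets, and the members with the smallest p or the most extreme fold change per group (55 genes). The members and lists were chosen with earlier results of these data known. The fit was tested on simulated data. Values of 1 gene that the naming rule takes are not reported here.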

Additional observations from a re-analysis of the deposited data

How the results depend on the processing

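With 4 members higher and 2 lower as reported, the counts were 0 and 0 with quantile normalization (14 members at an unadjusted p under 0.05), with no filter (17) and with no variance trend (2), settings in which all genes also had 0 and 0 (3998, 4302 and 2763 at an unadjusted p under 0.05), 6 and 1 with libraries rescaled to equal totals or equal nuclear totals, 3 and 1 at a pseudocount of 0.5, 4 and 2 at a pseudocount of 5, and 5 and 4 at a minimum of 10. Leaving out each library in turn gave 0 and 0 with the genes tested unchanged. With the filter applied again to the 3 libraries left, which was added after the data were seen, leave-one-out gave 0 to 7 higher and 0 to 2 lower: 7 and 1 without ctrl 1, 3 and 2 without ctrl 2, and 0 and 0 without either shOGT library. A group of 1 library is then assumed to vary like the other group. Deviations of ctrl 1 and shOGT 1 from their group means had a correlation of 0.007 over genes. This value cannot show whether replicate numbers pair the libraries, since a small shared effect could be hidden by noise. With the replicate number as a block the counts were 9 and 5, and over all genes 1007 and 1295. The planned edgeR and DESeq2 fits on recovered reads were not run, since it was not established for the ctrl libraries that a step stands for 1 read.

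The median log2 fold change of nuclear members was -0.013 with equal totals, -0.011 with equal nuclear totals and -0.012 with quantile normalization. It was -0.027 to -0.018 with 1 library left out, and -0.018, -0.018, -0.027 and -0.028 without ctrl 1, ctrl 2, shOGT 1 and shOGT 2 where the filter was applied again. That of mitochondrial members was 0.0055 to 0.144 with 1 library left out, and 0.144, 0.132 and 0.0055 without ctrl 1, shOGT 1 and shOGT 2 where the filter was applied again. With equal totals, equal nuclear totals and quantile normalization the medians were 0.044, 0.047 and 0.043 for complex IV and -0.049, -0.046 and -0.051 for complex V. With equal totals and equal nuclear totals those of complex I subunits were 0.020 and 0.023. With equal nuclear totals and quantile normalization the medians were -0.081 and -0.077 for complex I assembly factors and -0.046 and -0.035 for complex II. With 1 library left out the medians ran from -0.0072 to 0.0017 for complex I subunits, from -0.119 to -0.060 for assembly factors, from -0.056 to 0.0089 for complex III and from 0.020 to 0.041 for complex IV. The cause of these changes was not tested. Of 711 values of the 55 named members under other settings, 619 kept their direction and side of the threshold, 46 lost and 14 gained a call, and 32, of 16 members, changed sign, with 0 of these past the threshold in either setting. These 32 include Sdhc at 0.012 with equal totals, 0.014 with equal nuclear totals and 0.012 with quantile normalization, mt-Co3 at 0.0055 and 0.0083 with equal totals and equal nuclear totals, and Atp5a1 at 0.018 with quantile normalization. The others came with 1 library left out, where log2 fold changes ran from -0.43 to 0.25 for Cox4i2, -0.032 to 0.033 for Cox5b, -0.015 to 0.067 for Cox6a1, -0.031 to 0.24 for Cox6a2, -0.10 to 0.025 for Cox7a2, -0.028 to 0.042 for Cox7a2l, -0.076 to 0.013 for Ndufa4 and -0.0064 to 0.060 for Ndufv1. They ran from -0.019 to 0.0092 for Sdhc, -0.090 to 0.034 for Uqcrfs1, -0.15 to 0.32 for mt-Atp6, -0.017 to 0.029 for mt-Co1, -0.10 to 0.21 for mt-Co2, -0.28 to 0.25 for mt-Co3 and -0.32 to 1.11 for mt-Nd4l. mt-Nd2, mt-Nd6, mt-Atp8 and Atp5l kept the call in 6 of 13 settings, Cox6b2 in 5 and Atp5f1 in 3, with adjusted p up to 0.46. Nuclear members below and above both ctrl values numbered 35 and 18 as deposited, and 23 and 22 with equal totals.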
